A study of Mus musculus with 4 samples.

Results

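The Retnla-positive macrophages of mouse tumour ascites were 345 single cells, chosen from 45178 cells that held at least 200 detected genes and at most 33% mitochondrial UMIs, out of 46342 deposited cells. A UMI is a molecular barcode that counts 1 captured transcript. A macrophage gate required at least 3 UMIs of Lyz2 and Csf1r together, at most 1 UMI of the Cd3 genes, at most 2 UMIs of the Cd79 genes and at most 2 UMIs of Krt7, Krt8, Krt18 and Krt19 together. It held 4794 cells. Members also had at least 3 UMIs of Retnla. The comparison cells were the 2597 cells of the same gate with no Retnla UMI and at least 5 UMIs of C1qa, C1qb and C1qc together. The remaining cells of the gate fell into neither class.

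The cells came from ascites of female C57BL/6 mice (substrain C57BL/6NCrl, 6 weeks old when the tumour cells were injected) that carried intraperitoneal ID8-Trp53-/- cells, an ovarian tumour line lacking Trp53, for 7 days before treatment began. Mice received DMSO with an IgG2a isotype antibody at 100 ng per dose (control), BTYNB at 50 mg/kg with the isotype antibody, DMSO with an antibody against PD-1 at 100 ng per dose (anti-PD-1), or BTYNB with the antibody against PD-1 (combination), until about 3 mL of ascites had formed. BTYNB is a small molecule inhibitor of the RNA-binding protein IGF2BP1, and PD-1 is an inhibitory receptor of T cells. Animals of a treatment were pooled into 1 library, so each treatment had 1 sample and no treatment difference was tested. The ascites was depleted of erythrocytes and cryopreserved, with dead cells removed where applicable. Sets of 4 values below follow the order control, BTYNB, anti-PD-1 and combination.

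Retnla encodes RELM-alpha, a small secreted cysteine-rich protein that interleukin 4 and interleukin 13 induce in macrophages through the receptor chain IL4RA and the transcription factor STAT6. It is a classical transcript of alternative activation, the macrophage state linked to type 2 immunity and tissue repair. The peritoneal cavity holds resident macrophages that depend on GATA6 as well as macrophages derived from monocytes that carry MHC class II.

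The Retnla promoter is shown because the receptor and transcription factor just named act through it. RefSeq places its window of 250 bases before to 50 bases after the transcript start on GRCm38.p6 at chr16:48842359-48842658, plus strand. Capitals mark a STAT6 motif, TTC and GAA with any 4 bases between them, which begins 145 bases before the start, and a C/EBP motif, TTGC and AA with any 2 bases between them, which begins 134 bases before it.
Retnla: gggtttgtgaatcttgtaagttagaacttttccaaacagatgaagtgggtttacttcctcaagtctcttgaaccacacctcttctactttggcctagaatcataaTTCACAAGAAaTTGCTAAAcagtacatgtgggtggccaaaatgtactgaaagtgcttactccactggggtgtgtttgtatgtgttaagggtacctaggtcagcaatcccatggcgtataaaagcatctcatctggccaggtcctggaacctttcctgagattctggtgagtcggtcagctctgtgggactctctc
Both strands were searched, and the matches do not overlap each other. The STAT6 motif occurred in 6.95% of the 32851 promoters of the table and the C/EBP motif in 10.8%. Among the promoters of transcripts that peaked in the same cells, Ear2 and Lyz1 held the C/EBP motif, whereas the windows of Fcrls and Ccl9 held neither motif. A match describes letters in this window and shows no binding.

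The members were unevenly spread over the libraries. They made up 18.3% of the macrophage gate in control (53 of 289 cells, exact 95% interval 14.0 to 23.3%) and 15.1% in combination (178 of 1180, 13.1 to 17.3%). The share was 3.22% with BTYNB alone (95 of 2949, 2.61 to 3.92%) and 5.05% with the antibody alone (19 of 376, 3.07 to 7.78%). For these gate shares, the intervals of control and combination overlapped each other and lay above those of BTYNB and anti-PD-1. The latter intervals overlapped each other in turn. Gate cells in neither class numbered 36, 1479, 15 and 322, and they count in the denominators of these shares. Of all cells past the gene and mitochondrial limits, members made 0.677, 0.520, 0.158 and 2.53%. There the interval of control (0.507 to 0.884%) overlapped that of BTYNB (0.421 to 0.635%) and lay below that of combination (2.17 to 2.92%). The intervals cover counting error alone, since no second library of any treatment was made.

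Depth differed between the libraries and bears on these shares. The smallest deposited cell had 4438, 869, 3533 and 5115 UMIs, and the members had medians of 5239, 7124, 4129 and 7836.5 UMIs against 5386, 4775, 4201 and 7033.5 in the comparison cells. With every library held to the common floor of 5115 UMIs, 31, 62, 1 and 178 members were left, which made 17.0, 5.47, 1.54 and 15.1% of the gate. The higher shares in control and combination were present at this floor too, and the anti-PD-1 value then rested on 1 cell. No member shared its cell barcode with a member of another library.

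Within the members Retnla ranged widely. The lowest member had 3 UMIs in every library, the medians were 39, 43, 18 and 48.5 UMIs, and the highest members had 208, 335, 95 and 463 UMIs. At least 100 Retnla UMIs were seen in 2, 29, 0 and 59 members. Summed over members, Retnla amounted to 8076, 9907, 6217 and 10389 CPM, the UMIs of a gene per 1e6 UMIs, and the members held 88.9, 94.0, 70.1 and 88.2% of all Retnla UMIs of their library. Retnla chose these cells, so the values are a description.

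Some cells of the gate lay near the threshold, beside 53, 95, 19 and 178 members. Just inside it, 3, 5, 3 and 10 cells had 3 or 4 Retnla UMIs, and just outside, 9, 29, 3 and 40 cells of the gate had 1 or 2. In tumour cells, which should lack the transcript, Retnla was seen in 0.616, 0.838, 0.322 and 1.81% of cells with at least 10 keratin UMIs and no Ptprc, at medians of 11306.5, 19374.5, 8204 and 12984 UMIs. After each cell was thinned to 2000 UMIs these shares were 0.118, 0.320, 0.132 and 0.368%, against 18.7, 3.93, 5.32 and 15.3% of the macrophage gate.

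**Figure D1:**
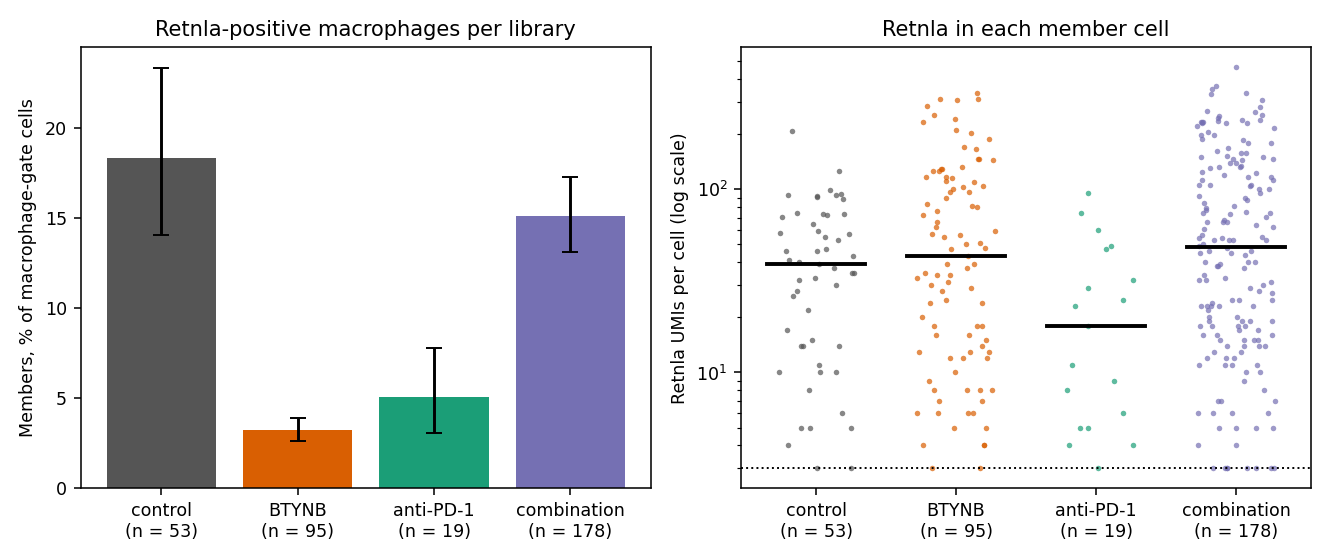
Left, members as a percentage of macrophage-gate cells in each library, with exact 95% binomial intervals as error bars. Right, Retnla UMIs of each member on a log scale, 1 point per cell, with the median as a black line and the threshold of 3 UMIs dotted. Control and combination had the higher shares, 18.3 and 15.1%, and medians lay between 18 and 48.5 UMIs.

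The macrophage label was checked against 10 identity genes that the gate did not use. All 10 were detected in the members of every library, with summed levels of 5441, 5671, 7419 and 6979 CPM against 8185, 6562, 9201 and 8122 CPM in the comparison cells. The lineage factor Spi1 stood at 183, 302, 196 and 237 CPM in members and at 192, 312, 217 and 231 CPM in comparison cells, a difference that did not pass the test (log2 fold change 0.04, edgeR adjusted p = 0.92). The members had less Csf1r, the receptor for colony-stimulating factor 1, with 226 to 286 CPM against 463 to 596 CPM, but Csf1r belongs to the rule and was not tested. Defining markers of eosinophils (Siglecf, Ccr3, Il5ra, Epx and Prg2) were all at 0 in the members of 3 libraries and summed to 3.44 CPM in combination.

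To ask how the members differ from macrophages without Retnla, the summed UMIs of both classes in each library were compared with the library as a block, so that the 4 libraries served as replicates of the class difference. Of 9125 genes tested, 493 were higher in members (5.4%) and 511 were lower (5.6%) at an adjusted p under 0.05, with a median log2 fold change of -0.04 over all genes. The counts of every gene list given below are to be read beside these shares. Member and comparison levels did not overlap, over all libraries, for 311 genes that were higher in members (3.41%) and for 717 that were lower (7.86%). The p-values measure the spread between 4 pools that carried different treatments. Genes of the rule were left out of the test.

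**Figure D2:**
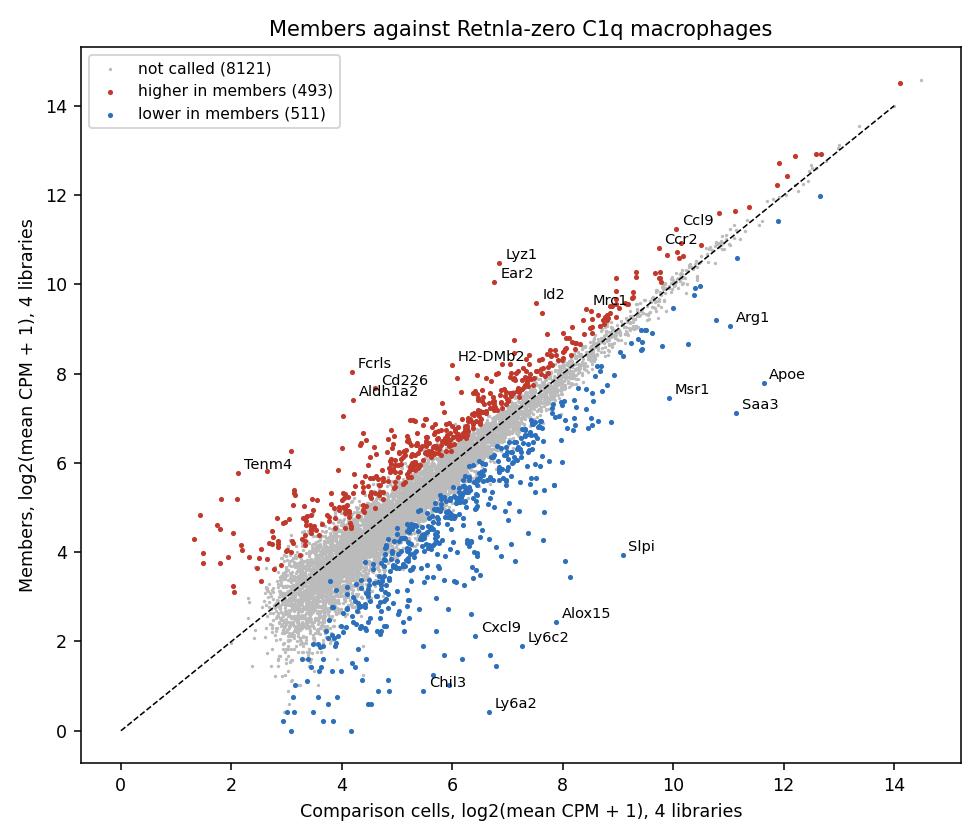
Mean CPM over the 4 libraries of each of the 9125 genes tested, members on the vertical axis against comparison cells on the horizontal axis, both as log2(CPM + 1). Red points were higher in members (493), blue points lower (511) and grey points were not called. Fcrls, Ear2 and Lyz1 lie far above the dashed line of equal levels and Apoe, Saa3 and Alox15 far below it.

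The most distinctive transcripts of the members were a small group of receptors, enzymes and secreted proteins. Fcrls, a scavenger-type member of the Fc receptor-like family, was at 249, 223, 221 and 349.8 CPM in members and at 26.0, 19.0, 7.81 and 15.6 CPM in comparison cells. The lowest member value lay far above the highest comparison value, and the log2 fold change was 4.02 ± 0.19 (SE, edgeR adjusted p = 2.67e-14). After thinning to 2000 UMIs, Fcrls was detected in 41.5, 27.7, 36.8 and 42.1% of members and in 4.50, 1.64, 1.75 and 3.38% of comparison cells. Ear2, a secreted ribonuclease of the eosinophil-associated family, reached 1031, 1074, 1410.2 and 722 CPM against 89.8, 179, 44.9 and 116 CPM (log2 fold change 3.30 ± 0.21, edgeR adjusted p = 8.32e-12). It was detected in 51.1 to 78.9% of thinned members and in 5.26 to 11.8% of comparison cells, so most members carried it in every library.

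Lyz1, a second lysozyme gene, was at 808, 1135, 1766 and 1982 CPM in members and at 170.4, 27.0, 116 and 144 CPM in comparison cells (log2 fold change 3.93 ± 0.27, edgeR adjusted p = 2.92e-11). It was carried by a minority of members, with 20.8, 31.9, 31.6 and 39.9% of thinned members against 16.0, 3.45, 12.0 and 11.5% of comparison cells, and in control the intervals of these shares overlapped (10.8 to 34.1% and 11.2 to 21.8%). Of the 144 Lyz1 UMIs in anti-PD-1 members, 90 lay in 3 cells with 3 or 4 Retnla UMIs. Lyz1 and Lyz2 are near-identical copies, and Ear2 has close paralogs, so reads of these families may have been split between genes. Aldh1a2, which makes retinoic acid, stood at 123 to 215 CPM in members and at 12.6 to 22.8 CPM in comparison cells (log2 fold change 3.56 ± 0.18, edgeR adjusted p = 1.58e-13). Cd226, an adhesion and co-stimulatory receptor, was at 199.6, 161, 233 and 217 CPM against 22.7, 27.6, 12.4 and 30.5 CPM (log2 fold change 2.99 ± 0.17, edgeR adjusted p = 2.54e-12). Neither gene overlapped between the classes.

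Further genes with large differences were receptors and enzymes. The teneurin Tenm4 had a log2 fold change of 4.10, the neurturin co-receptor Gfra2 3.39, the water and glycerol channel Aqp9 3.25, Tmem154 2.83, the calcium release channel Ryr1 2.32, Prelid2 2.27, the lysophosphatidic acid receptor Lpar1 2.04 and the glutaminyl cyclase Qpct 1.96. Id2, an inhibitor of helix-loop-helix transcription factors, was at 589.6 to 1140.5 CPM against 145 to 220.3 CPM, with a log2 fold change of 2.01. All of these differed without overlap between the classes, and each passed the edgeR test with an adjusted p of 7.05e-08 or smaller. For Lpar1 the counting intervals of the log2 ratio included 0 in control (-0.13 to 1.64) and in anti-PD-1 (-0.17 to 2.35). The call for Qpct was lost when comparison cells with any C1q level were used.

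**Figure D3:**
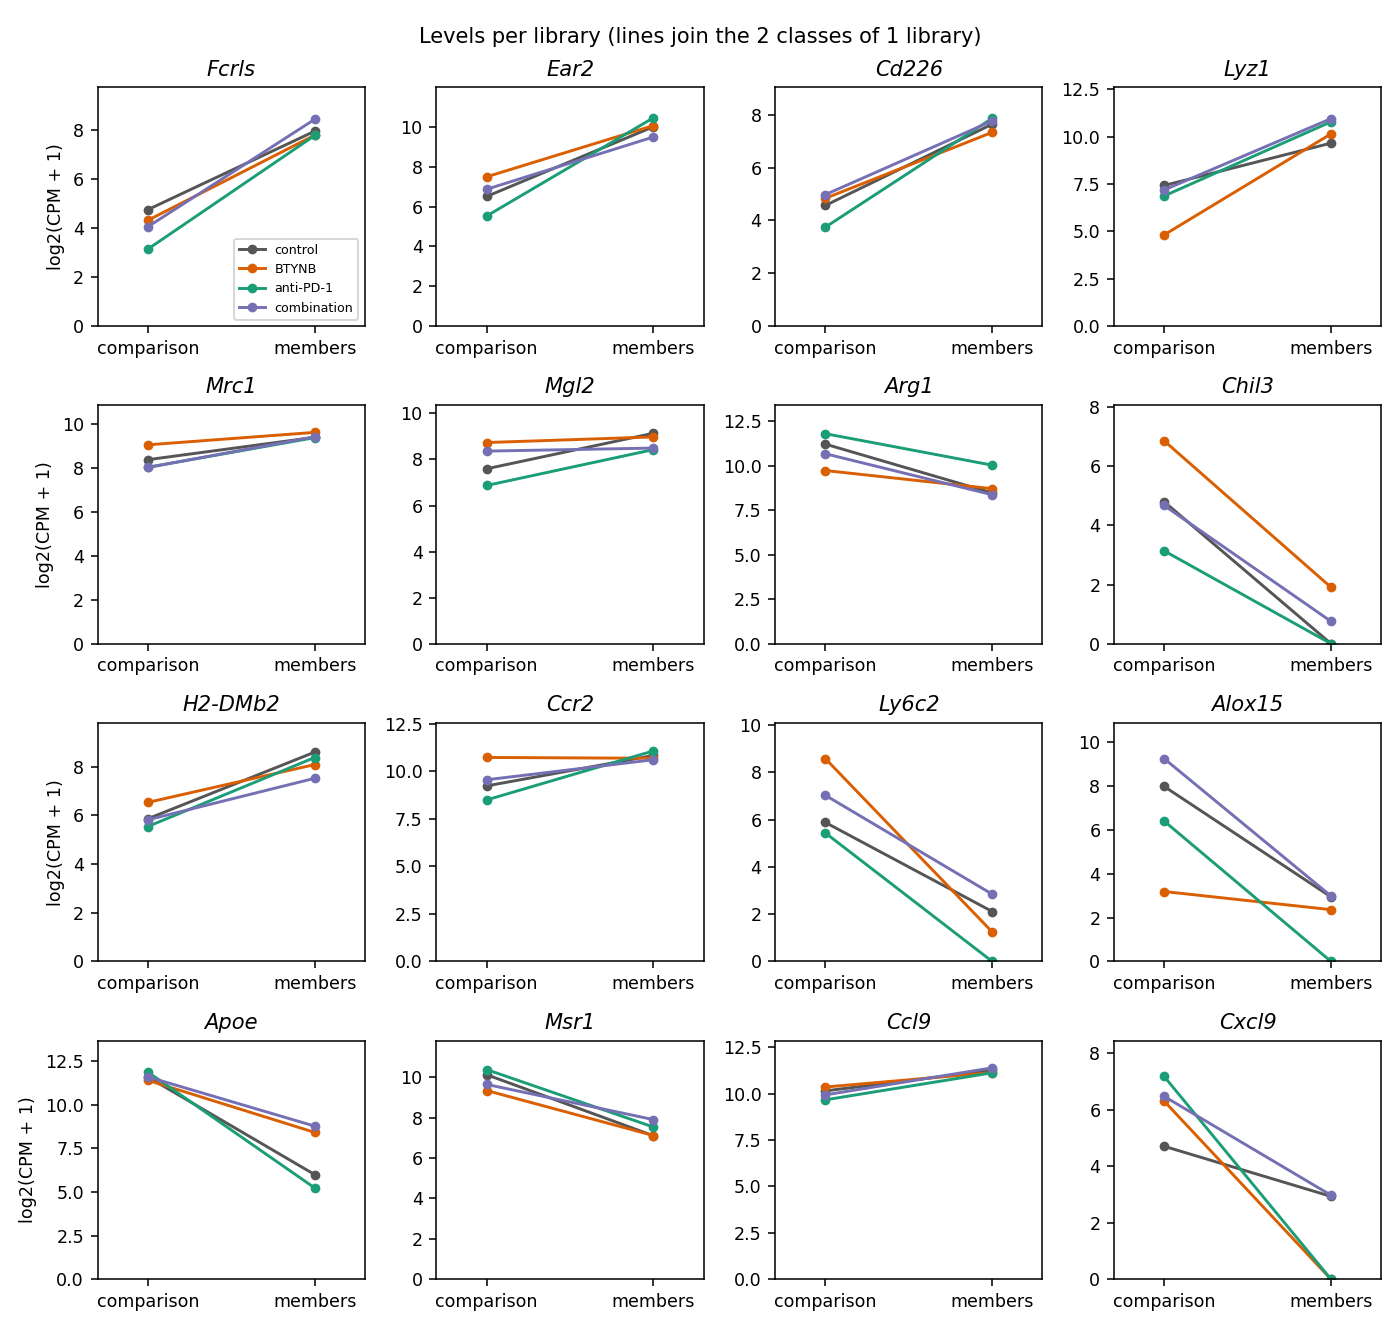
Levels of 16 genes as log2(CPM + 1) in comparison cells (left of each panel) and members (right), with a line for each library. All 4 lines rise for Fcrls, Ear2, Cd226, Lyz1, Mrc1 and Ccl9 and fall for Apoe, Msr1 and Cxcl9, whereas the BTYNB line of Ccr2 is nearly flat (1698 and 1649 CPM).

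Alternative activation transcripts split in their direction. Of 12 effectors tested, 5 were higher in members and 4 were lower (median log2 fold change 0.47, against -0.04 over all genes). The mannose receptor Mrc1 was at 669, 782, 662 and 679.7 CPM in members and at 329.8, 528, 259 and 258 CPM in comparison cells (log2 fold change 1.13 ± 0.13, edgeR adjusted p = 3.35e-07). The galactose-type lectin Mgl2 was at 562, 503, 343 and 359 CPM against 192, 425, 116 and 328 CPM, higher in each library although the ranges overlapped (log2 fold change 0.77 ± 0.18, edgeR adjusted p = 0.00325). Its call was lost at the common UMI floor. Clec10a, a related lectin, and Pdcd1lg2, the second ligand of PD-1, were higher as well, by 0.57 and 1.63 on the log2 scale, the latter with few UMIs and at only 8.93 to 36.8 CPM in members. The call for Pdcd1lg2 was lost when cells with any keratin UMI were left out and without the library block.

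Other classical transcripts of this state went the opposite way. Arg1, the arginase that consumes arginine, was at 353, 416, 1042 and 328 CPM in members and at 2365, 846, 3551 and 1626 CPM in comparison cells (log2 fold change -1.88 ± 0.17, edgeR adjusted p = 3.98e-09). Arg1 was lower in members of each library, yet the anti-PD-1 members exceeded the BTYNB comparison cells. Chil3, the chitinase-like protein Ym1, was nearly absent from the members, with 3 UMIs in all and 0, 2.75, 0 and 0.687 CPM against 26.9, 115, 7.81 and 24.5 CPM. No thinned member had a Chil3 UMI, against 4.50, 16.4, 1.17 and 3.09% of comparison cells. Tgm2, a transglutaminase, and Clec7a, the beta-glucan receptor Dectin-1, were lower, with log2 fold changes of -2.03 and -0.93 (edgeR adjusted p = 9.56e-10 and 2.93e-06). The haemoglobin scavenger receptor Cd163 did not pass (log2 fold change 0.84, edgeR adjusted p = 0.16) in members. Of the relatives of Retnla, Retn and Retnlb, like Retnlg, had too few UMIs to be tested.

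The signalling route from interleukin 4 was read from its receptors, kinases and transcription factors. Of 14 tested, 3 were higher in members, beside 5.4% of all genes, and none was lower by edgeR, also at an unadjusted p under 0.05 or by DESeq2 (0 lower), with a median log2 fold change of 0.00. The kinase Jak1 was higher at 199 to 343 CPM against 152 to 178 CPM (log2 fold change 0.49, edgeR adjusted p = 0.0169), and the transcription factors Egr2 and Irf4 by 1.01 and 1.08 (edgeR adjusted p = 2.17e-04 and 0.0117). Egr2 and Irf4 overlapped between the classes, and Irf4 rested on at most 24.7 CPM. The call for Egr2 was lost without the combination library and without the block. The receptor chain Il4ra stood at 23.3, 71.4, 49.1 and 31.6 CPM in members and at 50.4, 85.8, 57.9 and 45.7 CPM in comparison cells (edgeR adjusted p = 0.246), and Stat6 had a log2 fold change of -0.12 (edgeR adjusted p = 0.781). Few UMIs of the ligands were counted in the ascites as a whole. Il4 had 8, 36, 11 and 8 UMIs in all cells of a library and Il13 had 1, 27, 0 and 0, none of them in members.

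Of 14 resident peritoneal macrophage genes tested, 10 were lower in members and 2, F5 and Rarb, were higher, with a median log2 fold change of -1.92. Summed over the list, members held 482, 390 and 699 CPM in the first 3 libraries and 547 CPM in combination, against 1596, 279.8, 1402 and 2736 CPM in comparison cells, so in BTYNB the sum was higher in members. By DESeq2 3 of the 14 were lower and 2 were higher. The lipoxygenase Alox15 was at 6.65, 4.12, 0 and 6.87 CPM in members and at 248, 8.08, 82.7 and 598 CPM in comparison cells (log2 fold change -5.80 ± 0.36, edgeR adjusted p = 6.76e-12). In BTYNB its log2 ratio was -0.83, with an interval that included 0 (-3.29 to 0.64), whereas the gap was wide elsewhere. Icam2, Prg4, Selp, Itga6, Cd5l, Marco, Fcna, Tgfb2 and Efnb2 were lower too. Prg4, a lubricating proteoglycan, went the other way in BTYNB, with 11.0 CPM in members and 2.31 CPM in comparison cells. Gata6 itself was at 19.2 to 36.6 CPM against 11.5 to 61.2 CPM and did not pass (edgeR adjusted p = 0.339). F5, coagulation factor V, was at 91.4 to 159 CPM against 20.5 to 95.1 CPM, and the retinoic acid receptor Rarb at 12.3 to 33.7 CPM against 5.51 to 18.5 CPM. Timd4, a further receptor of resident cells, had too few UMIs for the test.

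Monocyte genes were mixed: 3 of 14 were higher and 3 were lower, with a median log2 fold change of 0.11. Ccr2, the receptor that brings monocytes into tissue, was even across members at 1826, 1649, 2158 and 1563 CPM, whereas comparison cells varied with 601, 1698, 360.0 and 751 CPM (log2 fold change 1.3 ± 0.21, edgeR adjusted p = 5.40e-05). The members thus exceeded the comparison cells in 3 libraries and matched them in BTYNB within counting error, where the log2 ratio was -0.04 (95% interval -0.13 to 0.04). F13a1, a clotting factor subunit of monocytes, was higher by 1.04 and S100a6 by 0.64. Ly6c2, the antigen of classical monocytes, was almost missing from members at 3.33, 1.37, 0 and 6.19 CPM against 57.9, 382, 42.3 and 129.6 CPM (log2 fold change -5.35 ± 0.32, edgeR adjusted p = 4.72e-12). The related Ly6a2 had 1 UMI over all members, at 0, 1.37, 0 and 0 CPM against 77.2, 10.1, 195 and 117 CPM, the smallest gap being that in BTYNB. Both belong to the Ly6 family, whose close copies may share reads.

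Of 10 MHC class II genes tested, 5 were higher in members and none was lower by edgeR or by DESeq2 (1 at an unadjusted p under 0.05), with a median log2 fold change of 0.29, while the other 5 did not pass. In BTYNB the sum over the list was 39490 CPM in members and 39562 CPM in comparison cells, and in the other libraries it was higher in members. The largest difference was in H2-DMb2, a chain of the peptide-loading molecule, at 386, 271, 331 and 183 CPM against 57.1, 91.5, 45.6 and 55.4 CPM (log2 fold change 2.11 ± 0.17, edgeR adjusted p = 6.02e-10), although its neighbour H2-DMb1 is a close copy. H2-DMa was higher by 0.75, H2-DMb1 by 0.57, H2-Eb1 by 0.42 and H2-Ab1 by 0.33. H2-Aa, at 4836 to 7873 CPM in members, did not pass (log2 fold change 0.26, edgeR adjusted p = 0.075). Every thinned member carried it, as did 100, 98.4, 100 and 98.2% of thinned comparison cells.

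Scavenger receptor genes leaned lower, whereas lipid-handling genes were divided. Of 13 receptors and bridging molecules for dying cells and modified lipoproteins, 8 were lower and none was higher by edgeR (median log2 fold change -1.13), and DESeq2 called 4 lower and none higher, nor was any higher at an unadjusted p under 0.05. The scavenger receptor Msr1 was at 136, 137, 184 and 238 CPM in members and at 1115, 647, 1329 and 798 CPM in comparison cells (log2 fold change -2.24 ± 0.16, edgeR adjusted p = 7.38e-11). Stab1, another scavenger receptor, had a log2 fold change of -2.73, the receptor kinase Axl -1.24 and its relative Mertk -0.64. Apoe, the apolipoprotein, was at 63.2, 342, 36.8 and 439 CPM against 3104, 2717, 3775 and 3116 CPM (log2 fold change -3.61 ± 0.27, edgeR adjusted p = 1.63e-10). Of 14 lipid-handling genes, 6 were lower, among them Trem2 (log2 fold change -1.93), Gpnmb (-3.97) and Cd9 (-2.27), 3 were higher (Pltp, Plin2 and Lgals3) and 5 did not pass. Pltp, the phospholipid transfer protein, was at 901, 982, 1239 and 1412 CPM against 427, 447, 534 and 590.4 CPM (log2 fold change 1.24, edgeR adjusted p = 2.81e-09).

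Complement genes were mostly lower. C1qc, 1 of the genes of the rule, was at 1288 to 2036 CPM in members and at 2465 to 3389 CPM in comparison cells. Of 7 further complement genes, 5 were lower, and only properdin, Cfp, was higher (log2 fold change 0.79, edgeR adjusted p = 9.34e-06). Since comparison cells had to hold 5 C1q UMIs, the test was repeated with the 274 members that met this limit. Then 418 genes were higher and 424 lower, sharing 391 and 395 with the calls above, and among the genes named here Irf4 and Cd209a were no longer called. When comparison cells with any C1q level were used instead, the dendritic and monocyte lectin Cd209a turned from 1.10 to -1.22 on the log2 scale (edgeR adjusted p = 0.00546).

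Among 15 chemokines, 7 were lower in members and 2, Ccl6 and Ccl9, were higher. Ccl6 was at 7384, 4964, 7076 and 7659 CPM in members and at 4837, 3018, 4179.8 and 3461 CPM in comparison cells, and Ccl9 at 2451, 2250.4, 2232 and 2685 CPM against 1136, 1311, 812 and 978 CPM (log2 fold changes 0.87 and 1.26, edgeR adjusted p = 3.07e-07 and 4.32e-09). The interferon-induced chemokine Cxcl9 was at 0 to 6.87 CPM in members against 25.2 to 145 CPM (log2 fold change -4.03, edgeR adjusted p = 3.66e-09). The acute-phase gene Saa3 was at 29.9, 154, 135 and 234 CPM against 1746, 492, 4284 and 2457 CPM, and the protease inhibitor Slpi at 3.33, 26.1, 0 and 27.5 CPM against 584, 29, 603 and 949.6 CPM. Saa3 was lower in members of each library, with its narrowest gap in BTYNB. Slpi was lower in the other 3 libraries, and its log2 ratio in BTYNB was -0.15 with an interval that included 0 (-0.91 to 0.53). The growth factor Igf1 and the matrix protease Mmp14 had log2 fold changes of -3.39 and -3.35, and Mmp13 had no UMI in members against 309 in comparison cells (at least 16.8-fold lower, with 3 counts over all members taken as the floor).

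Classical activation genes leaned lower: of 12 tested, 6 were lower in members, among them Il1b, Tnf and Slc7a2, and 2 were higher. The higher genes were the co-stimulatory ligand Cd80, at 83.2 to 158 CPM against 37.1 to 94.3 CPM (log2 fold change 0.88, edgeR adjusted p = 1.33e-04), and Il6 at no more than 34.4 CPM, whose call was lost without any 1 of 3 libraries. Among 12 checkpoint and suppressive genes, Pdcd1lg2, Cd200r1 and the interleukin 1 antagonist Il1rn were higher and Havcr2 was lower. Cd200r1, an inhibitory receptor of myeloid cells, was at 73.2, 64.6, 61.3 and 76.3 CPM against 18.5, 32.4, 11.1 and 24.9 CPM (log2 fold change 1.57 ± 0.21, edgeR adjusted p = 2.85e-06). Of 5 Fc gamma receptor genes, the inhibitory Fcgr2b was higher by 0.51, whereas Fcgr1 and Fcgr4 were lower, with log2 fold changes of -2.04 and -0.49. None of 12 proliferation genes passed in either direction by edgeR or by DESeq2, with 1 lower at an unadjusted p under 0.05. Of 14 interferon-stimulated genes, 1 was higher and 3 were lower, beside 5.4 and 5.6% of all genes. The higher one, Rsad2, lost its call by DESeq2, without the library block and with cells thinned before the rule.

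**Figure D4:**
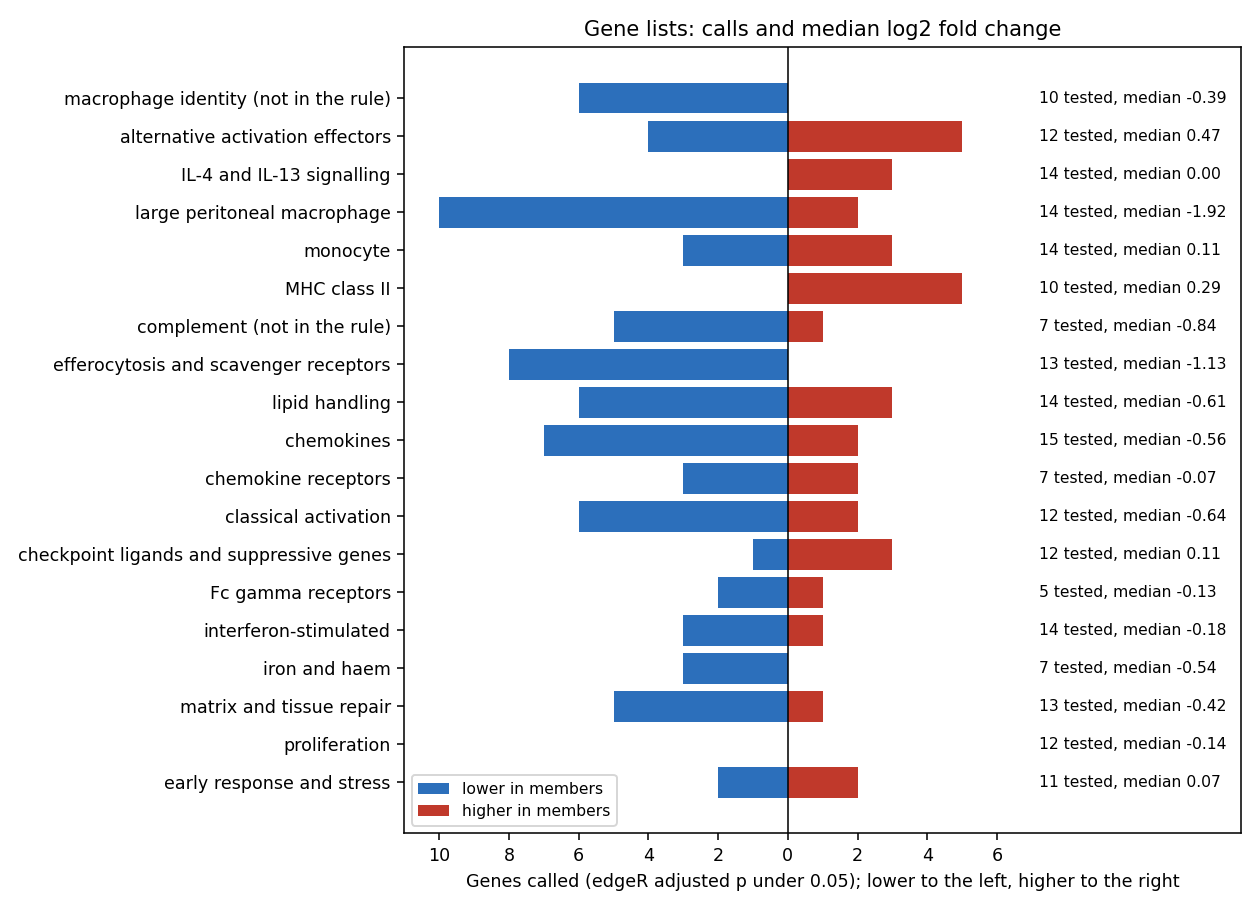
Number of genes of each list called higher (red, to the right) or lower (blue, to the left) in members by the edgeR test, with the number tested and the median log2 fold change beside each bar. Large peritoneal macrophage and scavenger lists lean to the left, 10 and 8 genes lower, and MHC class II lies to the right only, 5 genes higher.

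Markers of other cell types were summed in the same cells. Tumour markers summed to 193, 74.2, 172 and 114 CPM in members and to 161, 80.0, 256 and 136 CPM in comparison cells, and none of 3 tested passed, by edgeR, by DESeq2 or at an unadjusted p under 0.05. Globin and related erythroid transcripts summed to 436, 442, 24.5 and 361 CPM in members and to 15.1, 213, 13 and 201 CPM in comparison cells, and all 4 globins tested were higher in members by edgeR but 0 by DESeq2. The 2 neutrophil markers tested and 2 of 4 fibroblast and endothelial markers tested were lower in members. Cd2, a T cell and dendritic cell adhesion molecule, was higher at 13.3 to 36.8 CPM against 0.651 to 2.70 CPM. Of the dendritic markers Cd226 and Cd209a were higher, while Flt3, Zbtb46 and Ccr7 stayed at or below 11.0 CPM. The part of these transcripts in the differences above was not tested.

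Over all cells of the macrophage gate, members and cells without Retnla included, the genes whose level correlated most with Retnla were Ear2 (Pearson r = 0.48, mean of 4 libraries), Fcrls (0.42), Cd226 (0.30), Lyz1 (0.30) and Ccl9 (0.29), and those most opposed were Apoe (-0.30) and Msr1 (-0.23). These are descriptions over the 289, 2573, 376 and 1180 cells kept, which share a library and span both classes. To look within the class, members were split into 3 bins of Retnla per 10000 UMIs, cut at 32.9 and 109.5. From the lowest to the highest bin Ear2 went from 737 to 1667 CPM in control, from 623 to 1381 in BTYNB, from 1011 to 1885 in anti-PD-1 and from 546 to 923 in combination. The log2 ratio of the top to the bottom bin had an interval that included 0 for Fcrls in control and anti-PD-1 (0.82 and 0.18) and for Cd226 in BTYNB and anti-PD-1 (0.29 and 0.18). With bins of raw Retnla UMIs, 17 ratios fell outside the counting interval of the first binning and 27 inside it, and that of Ear2 in control was 0.29 (-0.20 to 0.81). Apoe went the other way where it was well counted, from 581 to 237 CPM in BTYNB and from 822 to 143 CPM in combination. Mgl2 also had a lower value in the highest bin of every library, with an interval off 0 in BTYNB and combination, while Mrc1 had a higher one, with an interval that included 0 in combination. The anti-PD-1 bins held 9 and 4 cells, and Lyz1, which was higher in the top bin of the other libraries, went from 3086 to 236 CPM there.

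Treatment differences within the members have 1 pool on each side, so they are given as log2 ratios of CPM (pseudocount 1 CPM) with exact 95% intervals that cover counting error only. Of 2310 genes with at least 100 UMIs in members of any library, 93 were past a log2 ratio of 1 in size between BTYNB and control (4.03%) and 237 between the antibody alone and control (10.3%). Adding BTYNB to the antibody moved 194 genes past this limit (8.4%), and adding the antibody to BTYNB moved 30 (1.3%). The anti-PD-1 members held 81547 UMIs against 300661, 727872 and 1455129 in the other libraries. Of the 237 and 194 genes, the intervals of 117 and 104 lay off 0. The 237 were 75 higher and 162 lower, which became 51 and 201 when libraries were scaled by the median of ratios, a choice that moved the median of all genes in that contrast from -0.06 to -0.17 on the log2 scale.

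With BTYNB, given alone or beside the antibody, Apoe ranked first by the smaller of its log2 ratios. Its level was 342 CPM in BTYNB against 63.2 CPM in control members (log2 ratio 2.42, interval 1.76 to 3.19) and 439 CPM in combination against 36.8 CPM in anti-PD-1 (3.54, 2.02 to 5.86). The anti-PD-1 level rested on 3 UMIs, the count taken as the floor (interval 7.59 to 107.5 CPM). In comparison cells the same log2 ratios were -0.19 and -0.28. The histone deacetylase Hdac9, at 76.5, 203, 49.1 and 111 CPM, and Atrnl1, at 89.8, 225, 61.3 and 126 CPM, had log2 ratios of 1.40 and 1.32 for BTYNB over control, with intervals off 0, and intervals that included 0 when BTYNB was added to the antibody. Ythdc1 and Sema4b followed with smaller counts, and Cbr2 had intervals that included 0 in both contrasts. In the other direction, the topoisomerase Top2a was at 293, 103, 319 and 152 CPM, with log2 ratios of -1.50 (-1.97 to -1.05) and -1.06 (-1.66 to -0.42). In comparison cells the log2 ratios of Top2a were -1.48 and -0.59. Cald1 and Ezh2 went the same way as Top2a, as did Ccni, Ftl1-ps1 and Armc8. Summed tumour markers were lower in the BTYNB and combination members as well, and their part in these differences was not tested.

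With the antibody against PD-1, given alone or beside BTYNB, Wfdc17, a secreted protein of the whey acidic protein family, was at 642, 637, 1386 and 1517 CPM. Its log2 ratio was 1.11 (0.76 to 1.45) without BTYNB and 1.25 (1.11 to 1.40) on top of BTYNB. In comparison cells the ratios were 0.17 and 1.09. The metallothionein Mt2 was at 925, 893, 380.1 and 421 CPM, with log2 ratios of -1.28 (-1.87 to -0.74) and -1.08 (-1.25 to -0.92), and the comparison cells moved the same way, by -0.55 and -1.50. Mt2 was therefore lower in both libraries with the antibody and higher in members than in comparison cells of every library. Ccnd2, a cyclin, had log2 ratios of 1.29 and 1.06 with intervals off 0. The folate receptor gene Folr2, at 36.6, 56.3, 73.6 and 131 CPM, and Tspan14 had ratios in the same direction in both contrasts, with an interval that included 0 for Folr2 in the first. Tbc1d10b and Fam219a were higher and Grk5, Dip2b, Ythdc1, Hbb-bs and Adam8 were lower in both.

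Retnla, Ear2, Fcrls and Mrc1 stayed under a log2 ratio of 1 in size in all 4 contrasts. Retnla had log2 ratios of 0.29 for BTYNB and -0.38 for the antibody over control, and of 0.74 for combination over the antibody alone and 0.07 over BTYNB alone. Retnla chose the members of each library, so its ratios only describe the chosen cells and do not show whether treatment changed it. Ear2 was lower in combination, with log2 ratios of -0.97 over the antibody alone and -0.57 over BTYNB alone and intervals off 0, while Fcrls was higher in combination than in BTYNB by 0.65 (0.39 to 0.92). Mrc1 had log2 ratios between -0.20 and 0.23. Arg1 stood out in the anti-PD-1 members at 1042 CPM, a log2 ratio of 1.56 (1.13 to 1.99) against control, and its log2 ratio of combination over the antibody alone was -1.66 (-2.0 to -1.32). The comparison cells showed the same directions, 0.59 and -1.13. In anti-PD-1, Arg1 was seen in 8 of 19 members, and 44 of its UMIs lay in the 5 cells with 10 to 29 Retnla UMIs. After thinning, Arg1 was detected in 36.8% of anti-PD-1 members (16.3 to 61.6%) and 26.4% of control members (15.3 to 40.3%), with overlapping intervals.

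The contrast of combination with BTYNB had the most UMIs on both sides, and the intervals of all 30 genes past the fold lay off 0, 19 of them higher in combination and 11 lower. This split depended on the setting, with 26 higher and 34 lower by the mean over cells and 25 and 4 at the common UMI floor. The following genes were chosen after their values were seen. Cxcl1, a neutrophil-attracting chemokine, was at 426 CPM in combination against 136 CPM in BTYNB (1.64, 1.34 to 1.97), Cd36, a fatty acid and scavenger receptor, at 366 against 158 CPM (1.21, 0.92 to 1.52), and Lrmda at 37.8 against 147 CPM (-1.93, -2.46 to -1.48). Cxcl1 and Cd36 had log2 ratios of 1.93 and 1.27 in comparison cells, so neither difference was particular to the members. The tumour-associated transcripts Sparc and Tm4sf1 were higher in combination than in BTYNB by 1.38 and 1.39, and had log2 ratios of -2.79 and -2.25 for BTYNB over control, alongside the summed tumour markers.

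**Figure D5:**
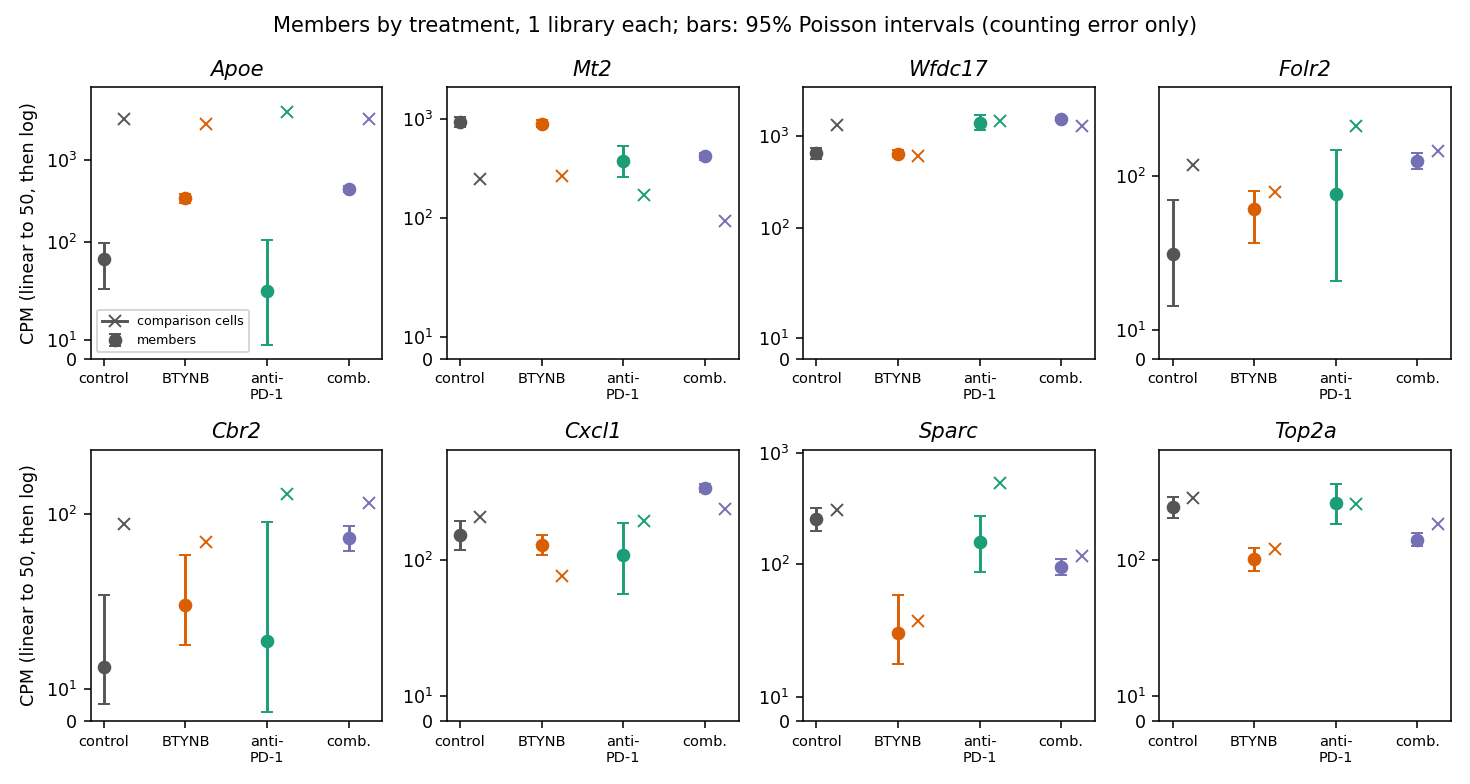
Levels in CPM of 8 genes in members (points, with exact 95% Poisson intervals) and comparison cells (crosses) of each library, on an axis that is linear up to 50 CPM and logarithmic above. Apoe is higher in members with BTYNB, 342 and 439 CPM against 63.2 and 36.8 CPM, and Mt2 is lower with the antibody against PD-1, 380.1 and 421 CPM. The 36.8 CPM of Apoe rests on 3 UMIs.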

How the data were processed

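The authors deposited counts, 1 matrix of whole-number UMIs per library from BD Rhapsody whole-transcriptome capture. The submitters' processing notes name GRCm39, and the study's methods name the BD Rhapsody Sequence Analysis Pipeline for the counting. The study dropped cells with under 200 genes or over 33% mitochondrial content. The deposited matrices still held such cells, so the same limits were applied here, with mitochondrial UMIs taken as those of genes named mt-. Members, comparison cells and gene lists were chosen with earlier results of these data known. UMIs were summed per library and class, normalised by TMM and tested with edgeR 4.0.16 (quasi-likelihood, library as block, genes with at least 10 UMIs in 4 of 8 sums, Benjamini-Hochberg over 9125 genes); DESeq2 1.42.0 was an alternative. Log2 fold changes are given with their SE. Scripts ran in R 4.3.3 and Python 3.11.15 and were tested on simulated counts. The same-library pairing comes from the design, since both classes were cut from 1 pool of cells. Treatments had 1 library each and were not tested.

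Totals per library ran from 78603888 to 114600397 UMIs; 1 UMI equalled 3.33, 1.37, 12.3 and 0.687 CPM in members, and 3 counts were taken as the floor where a sum was 0. Shares were thinned to 2000 UMIs, which left out 1 member and 98 comparison cells, all of BTYNB. Doublets were not removed; as an alternative the 5% of cells with the highest scrublet score were left out. Named genes were the 15 largest differences in each direction passing the test with 1 sign in all libraries and 50 CPM, the extreme and most abundant genes of each list, genes preset by name, the genes most correlated with Retnla, and 6 in each direction per treatment; further list genes were named after their values were seen. The labels and the study's methods give different dose amounts, and the labels' were used. Shares of gate cells, calls, list counts and treatment ratios were recomputed under alternatives for threshold, depth, doublets, keratin and mitochondrial limits, normalisation, filters and single libraries left out. The remaining libraries' cells outside the gate enter only the depth and background values.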

Additional observations from a re-analysis of the deposited data

Results flagged for a closer look

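The 8 genes below differed between members and comparison cells in opposite directions in different libraries, with counting intervals off 0 on both sides, and the difference between libraries was not tested because each treatment had 1 library. Cd14, the lipopolysaccharide co-receptor, had log2 ratios of member to comparison level of 0.56 in anti-PD-1 and 0.18 in combination but -0.19 in BTYNB. Fn1, fibronectin, had 1.42 in BTYNB and 0.28 in combination but -0.33 in control. Klf4, a transcription factor, had 0.30 in control and -0.18 in combination. Cd74, the MHC class II invariant chain, had -0.059 in BTYNB but 0.26, 0.24 and 0.097 in the control, anti-PD-1 and combination libraries. Gbp2, an interferon-induced guanylate-binding protein, had 0.58 in anti-PD-1 and -0.97 in BTYNB. Ftl1, ferritin light chain, had 0.20 in BTYNB and 0.13 in combination but -0.21 in control. Hmox1, which degrades haem, had 0.47 in BTYNB and 0.66 in combination but -0.26 in control and -1.45 in anti-PD-1. Fscn1, an actin-bundling protein, had 1.14 in BTYNB, -1.87 in combination and -4.40 in control, where no member had a UMI, so that the last value depends on the pseudocount of 1 CPM.

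Cells outside the macrophage gate also held Retnla. At least 3 UMIs were found in 15, 12, 12 and 33 such cells, 0.199, 0.0783, 0.103 and 0.563% of the cells outside the gate, and the combination value lay above that of control (exact 95% intervals 0.388 to 0.790% and 0.111 to 0.328%). Of these cells, 15, 4, 11 and 25 were outside because of more than 2 keratin UMIs, and 13, 8, 10 and 27 had at least 3 UMIs of Lyz2 and Csf1r. Whether these are doublets was not tested.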

How the results depend on the processing

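The order of the member shares of the gate did not change for control and combination above BTYNB and anti-PD-1 under the Retnla thresholds and the common UMI floor. With Retnla at 1 UMI BTYNB gave 4.20% and combination 18.5%, both above the intervals at 3 UMIs (2.61 to 3.92% and 13.1 to 17.3%). At 10 UMIs it was 2.61% in BTYNB and 2.93% in anti-PD-1, and at the common floor 5.47 and 1.54%. Leaving out 1 library at a time gave 298 to 519 genes higher and 271 to 447 lower, the smallest counts without combination, where 288 and 259 calls were shared with the full test. Without the library block 195 were higher and 201 lower, all among the calls of the blocked test. DESeq2 called 341 higher and 259 lower, and cells thinned before the rule gave 258 and 215. Cd209a turned to -1.22 with comparison cells of any C1q level. Over all settings, 97 values of named fold changes lost their call, among them those of Ccr2, F13a1, F5, Rarb and Cd80 without the block. No paired analysis was possible between treatments because each had 1 library.

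Genes past a log2 ratio of 1 depended on the filter: with 10 UMIs in place of 100 they were 1703 and 3197 for BTYNB and the antibody over control, 2955 for combination over the antibody alone and 796 for it over BTYNB alone. With cells that had no keratin UMI the first 3 of these contrasts had 47, 147 and 124, with fewer genes tested (1480). The mean over cells gave 164 for BTYNB over control and 60 for combination over BTYNB. Scaling by the median of ratios moved the median of all genes from 0.08 to 0.23 for combination over the antibody alone, and the genes past the fold from 172 higher and 22 lower to 233 and 10. Cbr2 turned to -0.0445 for BTYNB over control at the common floor and Tspan14 to -0.00183 for the antibody over control with Retnla at 10 UMIs. The contrasts with anti-PD-1 were not run at the common floor, which left 1 member. Depth limits the anti-PD-1 values most: with 81547 UMIs, a gene at 0 there has an exact 95% upper limit of 45.2 CPM.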

Other observations

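Other ligands that could reach the members were counted over all cells of each library. Il33, an alarmin that induces type 2 cytokines, was at 72.6, 53.2, 93.5 and 56.4 CPM, nearly all outside the members, which held 2, 1, 0 and 5 of its UMIs. Csf1, the ligand of Csf1r, was at 58.5, 56.8, 51.6 and 60.5 CPM and differed little between libraries. Csf2 and Il25 had 69 and 4 UMIs at most in a library.

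In BTYNB and combination, gate cells with 1 or 2 Retnla UMIs lay between members and gate cells without Retnla for Ear2 and Apoe. Their Ear2 level was 992, 684, 0 and 355 CPM, against 122, 145, 48.3 and 154 CPM in gate cells with no Retnla UMI, and their Apoe level was 19.1, 1199, 3779 and 1824 CPM against 2762, 1884, 3648 and 2259 CPM. They numbered 9, 29, 3 and 40 cells, so the anti-PD-1 values rest on 3 cells. In control, Apoe lay below the 63.2 CPM of members, and in anti-PD-1 neither gene lay between. Fcrls in control was at 401 CPM in these cells, above the 249 CPM of members.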
